A study of Homo sapiens with 6 samples.

Results

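The 10 genes of the Kruppel-like factor (KLF) family described here, KLF2, KLF3, KLF4, KLF5, KLF6, KLF9, KLF10, KLF11, KLF13 and KLF14, were measured in UMUC3 cells, a human bladder cancer cell line, infected with a TIM-1 vector or with the empty vector. They were 10 of the 60605 genes of the deposited count table, found by gene symbol, and all 10 passed the filter on low counts, which kept 14479 genes. KLF9 and KLF14 were picked for their rise with TIM-1 in these same libraries, so their difference between the groups is a description and no test of it is given. The other 8 were taken for their family name. KLF proteins bind GC-rich and CACCC-containing DNA through zinc fingers at the end of the protein, which they share with the SP family, and their remaining parts recruit either activators or repressors. KLF2, KLF4, KLF5 and KLF6 act largely as activators, KLF3 binds the CtBP corepressors, and KLF9, KLF10, KLF11, KLF13 and KLF14 bind the SIN3A corepressor. In bladder urothelium KLF4 and KLF5 are known for roles in epithelial growth and differentiation.

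The TIM-1 group held 3 libraries of cells infected with a pLVX vector that carries TIM-1, a phosphatidylserine receptor encoded by HAVCR1, and an IRES followed by the green fluorescent protein ZsGreen. The empty-vector group held 3 libraries of cells infected with the pLVX, IRES and ZsGreen vector without TIM-1. Lentiviral infection and ZsGreen were thus common to both groups, and whether each library is a separate culture is not given by the labels. The p-values therefore rest on the library-to-library spread alone, which could be technical. The comparison addressed the transcripts that change with TIM-1 expression.

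Library totals lay between 14312387 and 18605914 counts. For HAVCR1, TIM-1 replicates 1, 2 and 3 gave 7069, 9824 and 11479 counts, and empty-vector replicates 1, 2 and 3 gave 4, 0 and 0 counts. In both groups replicate 1 differed most from the other replicates, and 3179 of the 14479 tested genes (22%) differed with the replicate number (edgeR adjusted p under 0.05). Of 14 urothelial and epithelial markers 5 had at least 10 counts in every library, while EPCAM and UPK3A were at 0 in all libraries and CDH1 had at most 2 counts. Summed, the 14 lay between 333 and 446 CPM in TIM-1 libraries and between 366 and 567 CPM in empty-vector libraries. KRT18 alone gave 272 to 390 CPM in TIM-1 libraries and 314 to 511 CPM in empty-vector libraries. With libraries of the same number paired, 3 of the 5 tested markers were called, against 5.01% of all genes: PPARG rose by 0.62 (edgeR adjusted p = 0.0185), while GATA3 fell by 1.25 (0.0457) and KRT18 fell by 0.24 (0.00946). DESeq2 with pairing called 1 of the 5. GATA3 counts were low, at 12, 15 and 12 in TIM-1 replicates 1, 2 and 3, against 18, 38 and 38 in empty-vector replicates 1, 2 and 3. The 3 markers were named after their values were seen, and their part in the KLF results was not tested. Without pairing 0 of the 5 were called by edgeR or by DESeq2. In edgeR 2 of the 5 had an unadjusted p under 0.05 without pairing, against 795 of the 14479 tested genes. All 4 mesenchymal markers were present, with sums of 1600 to 1960 CPM in TIM-1 libraries and 1800 to 2310 CPM in empty-vector libraries. All 5 leukocyte markers were at 0, and the 4 endothelial markers summed to at most 0.276 CPM in TIM-1 libraries and 0.125 CPM in empty-vector libraries. CPM is the count per 1000000 counts of a library, with library sizes scaled by the TMM method.

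Windows around RefSeq start sites are shown for 6 KLF genes because these genes differed by group or by replicate number in the results below. KLF9 and KLF14 are the genes picked for their rise with TIM-1, and KLF2, KLF4, KLF6 and KLF11 were lower in replicate 1. Each window spans bases -250 to 50 around the RefSeq start site (GRCh38.p14, gene strand, 5′ to 3′). The windows are chr9:70414608-70414907 (minus strand) for KLF9, chr7:130734158-130734457 (minus) for KLF14, chr19:16324576-16324875 (plus) for KLF2, chr9:107489720-107490019 (minus) for KLF4 and chr10:3785160-3785459 (minus) for KLF6. KLF11 had 2 windows, chr2:10043579-10043878 and chr2:10043971-10044270 (both plus). Both lie inside the annotated span of KLF11, which starts at 10042849 on the plus strand. The KLF4 window lies inside the annotated span of KLF4, whose minus-strand start is at 107490482. The windows of KLF4 and KLF11 therefore do not cover the outermost annotated start of the gene, and whether they act as promoters was not tested. Capitals mark matches to any of 6 motifs on either strand, namely the GC box GGGCGG and the CACCC box CCACCC, to which KLF and SP proteins bind, the E-box CACGTG, the cAMP response element TGACGTCA, the CArG box of serum response factor and the MEF2 element.
KLF9: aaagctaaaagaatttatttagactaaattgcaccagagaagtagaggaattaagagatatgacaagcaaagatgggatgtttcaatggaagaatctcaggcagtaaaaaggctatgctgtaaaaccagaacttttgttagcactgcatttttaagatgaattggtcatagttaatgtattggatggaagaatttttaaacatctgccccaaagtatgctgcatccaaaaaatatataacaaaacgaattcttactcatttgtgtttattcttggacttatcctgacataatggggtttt
KLF14: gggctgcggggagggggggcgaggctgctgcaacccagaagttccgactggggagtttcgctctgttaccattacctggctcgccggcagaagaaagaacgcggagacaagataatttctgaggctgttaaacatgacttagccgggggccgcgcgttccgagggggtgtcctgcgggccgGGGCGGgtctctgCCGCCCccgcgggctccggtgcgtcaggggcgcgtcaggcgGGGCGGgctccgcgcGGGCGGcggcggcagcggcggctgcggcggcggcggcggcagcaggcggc
KLF2: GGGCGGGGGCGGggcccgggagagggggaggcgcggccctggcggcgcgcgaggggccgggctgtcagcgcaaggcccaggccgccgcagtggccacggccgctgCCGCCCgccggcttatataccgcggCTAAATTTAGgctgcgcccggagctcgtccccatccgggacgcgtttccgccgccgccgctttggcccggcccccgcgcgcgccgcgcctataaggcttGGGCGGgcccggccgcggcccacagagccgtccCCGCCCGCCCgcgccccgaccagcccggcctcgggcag
KLF4: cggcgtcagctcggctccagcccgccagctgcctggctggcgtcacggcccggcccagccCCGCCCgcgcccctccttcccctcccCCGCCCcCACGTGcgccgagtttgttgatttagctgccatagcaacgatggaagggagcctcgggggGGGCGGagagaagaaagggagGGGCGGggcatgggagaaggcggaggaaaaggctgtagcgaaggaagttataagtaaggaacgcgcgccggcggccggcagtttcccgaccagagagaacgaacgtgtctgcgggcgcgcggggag
KLF6: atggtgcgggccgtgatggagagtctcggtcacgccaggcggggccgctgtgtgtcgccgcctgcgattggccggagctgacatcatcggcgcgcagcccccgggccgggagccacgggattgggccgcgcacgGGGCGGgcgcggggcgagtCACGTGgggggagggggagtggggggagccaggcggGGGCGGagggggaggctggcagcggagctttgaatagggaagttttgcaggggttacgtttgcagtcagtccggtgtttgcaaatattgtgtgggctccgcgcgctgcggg
KLF11 window 1: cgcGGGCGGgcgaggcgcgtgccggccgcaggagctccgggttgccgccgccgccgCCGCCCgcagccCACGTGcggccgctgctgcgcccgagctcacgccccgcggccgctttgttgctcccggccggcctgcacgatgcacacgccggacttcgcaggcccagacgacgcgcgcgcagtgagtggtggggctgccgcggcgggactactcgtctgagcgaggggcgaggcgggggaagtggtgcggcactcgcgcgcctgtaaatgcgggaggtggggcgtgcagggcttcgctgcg
KLF11 window 2: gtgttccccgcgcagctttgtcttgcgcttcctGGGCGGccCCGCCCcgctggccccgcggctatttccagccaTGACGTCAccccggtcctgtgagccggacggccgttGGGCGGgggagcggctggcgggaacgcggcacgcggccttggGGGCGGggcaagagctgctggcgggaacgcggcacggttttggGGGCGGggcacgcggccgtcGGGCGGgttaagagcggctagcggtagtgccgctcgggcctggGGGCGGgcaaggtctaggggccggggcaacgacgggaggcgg
The KLF9 window had a GC content of 32.7% and matched 0 of the 6 motifs. The KLF14 window had a GC content of 72.7% and 4 GC boxes. The KLF2 window had 6 GC boxes, of which 2 overlap, and a MEF2 element at bases -120 to -111 from the start site. KLF4 had 4 GC boxes and KLF6 had 2, and each had 1 E-box. Window 1 of KLF11 had 2 GC boxes and 1 E-box, and window 2 had 7 GC boxes and 1 cAMP response element. Of all 35116 windows in the RefSeq table, 45% held a GC box, 34.3% a CACCC box, 7.26% an E-box, 2.99% a MEF2 element, 1.85% a cAMP response element and 1.29% a CArG box. A match describes letters and is not a measured binding site. Windows were taken for 8 of the 10 genes, and KLF5, like KLF11, had 2. The lack of a window for the remaining genes does not show that the RefSeq table has none.

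KLF6 was the most abundant of the 10 genes, and KLF9 and KLF14 were the least. Per kilobase of exon, the TIM-1 libraries averaged 102 ± 30.5 CPM for KLF6 and the empty-vector libraries 117 ± 37.0 CPM (SD, n = 3 each). KLF10 and KLF2 followed, at 29.6 ± 0.672 and 27.9 ± 5.01 CPM per kilobase with TIM-1, and at 32.0 ± 3.35 and 30.3 ± 9.30 with the empty vector (SD, n = 3 each). Their values overlapped over the 6 libraries, so their order is not set. KLF11 and KLF13 came next, with means over the 6 libraries of 8.73 and 6.67 CPM per kilobase, and they overlapped too. KLF3, KLF4 and KLF5 had means of 3.95, 3.44 and 2.88 CPM per kilobase, each overlapping its neighbour. KLF9 had 0.983 ± 0.317 CPM per kilobase in TIM-1 libraries and 0.370 ± 0.0596 in empty-vector libraries (SD, n = 3 each). KLF14 had 0.696 ± 0.118 with TIM-1 and 0.272 ± 0.0756 with the empty vector. The 2 genes picked for their rise were therefore the lowest of the 10 in both groups, and as their values overlapped over the 6 libraries the order between them is not set.

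**Figure D1:**
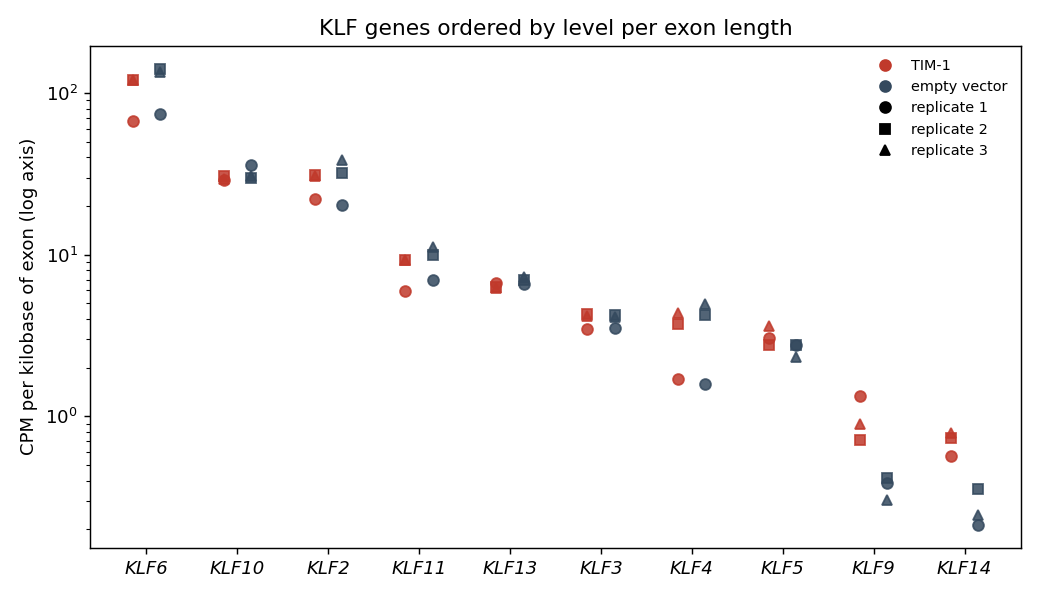
Level of the 10 KLF genes per kilobase of exon in each library, on a log axis, with genes ordered by their mean over the 6 libraries. Points are libraries, with TIM-1 left of the empty vector for each gene, and KLF6 lies above all others (mean 109 CPM per kilobase) and KLF9 and KLF14 below the rest (means 0.676 and 0.484).

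KLF9 encodes a transcription factor induced by glucocorticoid and thyroid hormones, and it was higher in every TIM-1 library than in any empty-vector library. The gene (ENSG00000119138) lies on the minus strand of chromosome 9 (GRCh38), between 70384597 and 70414624. TIM-1 replicates 1, 2 and 3 gave 100, 60 and 86 KLF9 counts, and empty-vector replicates 1, 2 and 3 gave 32, 35 and 26. TIM-1 replicate 1 was the highest of all, and the lowest TIM-1 library, replicate 2, stood at 3.71 CPM, above the highest empty-vector library at 2.16 CPM. The means were 5.08 ± 1.64 CPM in TIM-1 libraries and 1.91 ± 0.308 CPM in empty-vector libraries (SD, n = 3 each), a ratio of 2.66. Within same-numbered libraries the difference of log2 (CPM + 0.5) was 1.56 for replicate 1, 0.66 for replicate 2 and 1.31 for replicate 3. The fitted log2 fold change of KLF9 was 1.40 (SE 0.289). It lay between 1.13 and 1.68 when a library (unpaired fit) or a pair of libraries (paired fit) was left out. The SE and the range come from the libraries on which KLF9 was picked, so they describe the values and test nothing.

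KLF14, an intronless gene expressed from the maternal allele in several tissues and known as a regulator of fat metabolism, was also higher in every TIM-1 library. The gene (ENSG00000266265) lies on the minus strand of chromosome 7, between 130731235 and 130734176. Its counts were low, at 24, 35 and 43 in TIM-1 replicates 1, 2 and 3, against 10, 17 and 12 in empty-vector replicates 1, 2 and 3. The groups did not overlap, with 1.66 to 2.32 CPM in TIM-1 libraries and 0.626 to 1.05 CPM in empty-vector libraries. The means were 2.05 ± 0.348 CPM in TIM-1 libraries and 0.801 ± 0.223 CPM in empty-vector libraries (SD, n = 3 each), a ratio of 2.56. The fitted log2 fold change of KLF14 was 1.35 (SE 0.341), between 1.19 and 1.59 with a library (unpaired fit) or a pair (paired fit) left out. As for KLF9, these values come from the libraries on which the gene was picked. Of all 14479 tested genes 11.7% had groups that did not overlap. Of the 10 KLF genes KLF9 and KLF14 were the only ones with such a gap, and they were picked on this contrast. Among their relatives outside the 10, the groups also did not overlap for 1 of 4 other tested KLF genes, KLF7. The same held for 3 of 5 tested SP genes, SP3, SP4 and SP6, which were lower with TIM-1. A ratio in bulk RNA does not tell more RNA per cell from more cells that express the gene.

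**Figure D2:**
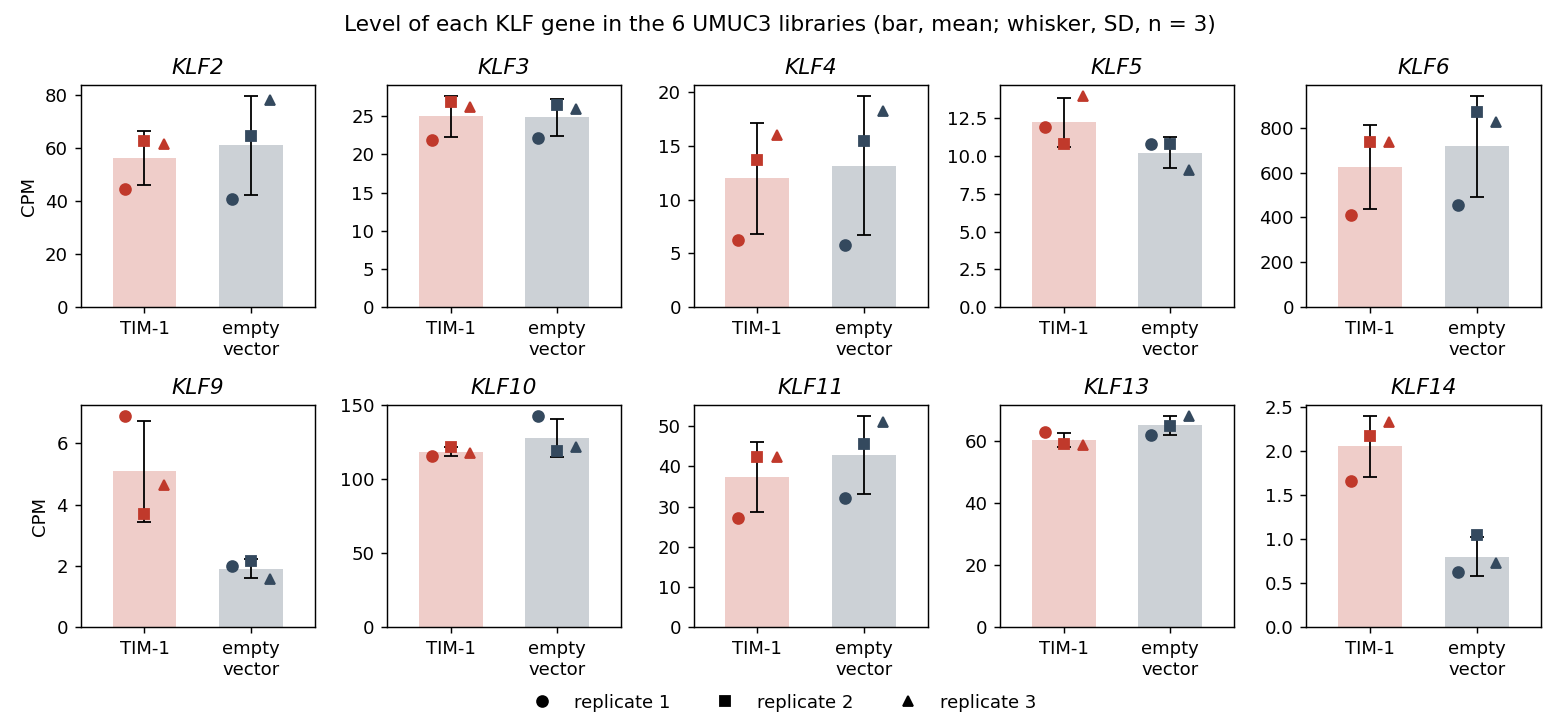
Level of each KLF gene in CPM, with TIM-1 on the left and the empty vector on the right of each panel, bars at the mean, whiskers at 1 SD (n = 3) and a marker per library. KLF9 and KLF14 are higher in all 3 TIM-1 libraries, and KLF2, KLF4, KLF6 and KLF11 are lowest in replicate 1 of each group.

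None of the other 8 KLF genes differed between TIM-1 and the empty vector in edgeR's quasi-likelihood test without pairing, in which 2 of 14479 genes (0.0138%) were called. Of the 8 genes 0 had an unadjusted p under 0.05, against 795 of the 14479 tested genes, and DESeq2 without pairing also called 0. When libraries of the same number were treated as pairs, 725 genes (5.01%) were called over the whole table, 466 higher (3.22%) and 259 lower (1.79%) with TIM-1, and 1 of the 8 was among them, KLF6. With pairing 2 of the 8 had an unadjusted p under 0.05, against 2656 of the 14479 tested genes, and DESeq2 called 0. The median log2 fold change of the 8 genes was -0.11, against 0.00 for all tested genes.

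KLF6, a growth-restraining activator that responds early to stimulation, had 411, 735 and 735 CPM in TIM-1 replicates 1, 2 and 3, against 456, 868 and 826 CPM in empty-vector replicates 1, 2 and 3. It was lower with TIM-1 in each pair, but the groups overlapped, with replicate 1 low in both. The log2 fold change of KLF6 was -0.19 (SE 0.332, edgeR adjusted p = 0.956) without pairing and -0.19 (SE 0.0580, edgeR adjusted p = 0.0469) with it. By the paired edgeR test, leaving out 1 pair at a time gave KLF6 adjusted p of 0.101 (without replicate 1), 0.507 (without replicate 2) and 0.0501 (without replicate 3), so the call was lost each time, and also with DESeq2 (adjusted p = 0.0666).

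KLF2 and KLF4 are targets of the ERK5 kinase pathway in endothelial cells, and KLF4 is also a reprogramming factor. KLF2 had 44.7, 62.9 and 61.5 CPM in TIM-1 replicates 1, 2 and 3, against 41.0, 64.5 and 78.1 CPM in empty-vector replicates 1, 2 and 3. KLF4 had 6.21, 13.7 and 16.0 CPM in the TIM-1 replicates, against 5.83, 15.5 and 18.2 CPM in the empty-vector replicates. Both genes spread more between replicate numbers than between groups. Their log2 fold changes were -0.12 (SE 0.232, edgeR adjusted p = 0.960) for KLF2 and -0.13 (SE 0.485, edgeR adjusted p = 0.987) for KLF4. KLF5, a growth-promoting factor of epithelia, had 11.9, 10.8 and 14 CPM in the TIM-1 replicates, against 10.8, 10.8 and 9.05 CPM in the empty-vector replicates. Its difference lay mostly in replicate 3, with a log2 fold change of 0.26 (SE 0.158, edgeR adjusted p = 0.904).

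KLF10 and KLF11 are early TGF-beta response genes whose proteins repress through SIN3A. KLF10 had 116, 122 and 118 CPM in TIM-1 replicates 1, 2 and 3, against 143, 119 and 122 CPM in empty-vector replicates 1, 2 and 3. Apart from empty-vector replicate 1, its libraries lay close together, with a log2 fold change of -0.11 (SE 0.0940, edgeR adjusted p = 0.921). KLF11 had 27.2, 42.3 and 42.4 CPM in the TIM-1 replicates, against 32.1, 45.4 and 51.0 CPM in the empty-vector replicates, lower with TIM-1 in each pair. The log2 fold change of KLF11 was -0.20 (SE 0.210, edgeR adjusted p = 0.931), and with pairing the adjusted p was 0.174. A correction for GC content added to the pairing brought KLF11 to -0.25 (edgeR adjusted p = 0.0248), while the median of all tested genes moved to -0.04 and the lower calls numbered 1034, against 259 with pairing alone. KLF13, a close relative of KLF9, had 58.9 to 63.1 CPM with TIM-1 and 62.2 to 68.3 CPM with the empty vector, with a log2 fold change of -0.11 (SE 0.0882, edgeR adjusted p = 0.919). KLF3, the CtBP-binding repressor, had 21.9 to 26.9 CPM with TIM-1 and 22.1 to 26.5 CPM with the empty vector, with a log2 fold change of 0.01 (SE 0.130, edgeR adjusted p = 0.994).

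Outside the 10 genes, the KLF family held 8 more genes, of which 4 were tested, and the SP family 9, of which 5 were tested. In the unpaired edgeR test 0 of these 9 tested genes were called and DESeq2 called 0. SP4 alone had an unadjusted p under 0.05 in that edgeR test, against 795 of the 14479 tested genes. With pairing KLF12, a CtBP-binding repressor, rose, and its call was lost with DESeq2. KLF12 had 37.8, 27.8 and 26.2 CPM in TIM-1 replicates 1, 2 and 3, against 32.9, 20.5 and 19.5 CPM in empty-vector replicates 1, 2 and 3. It was higher with TIM-1 in each pair and higher in replicate 1 of both groups. The paired log2 fold change of KLF12 was 0.35 (SE 0.0986, edgeR adjusted p = 0.0232), lost without the replicate 2 pair (0.329) and the replicate 3 pair (0.0989) and with DESeq2 (adjusted p = 0.294).

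KLF7, a factor of neuronal and fat cells, had 21.8 to 23.7 CPM with TIM-1 and 19.1 to 20.2 CPM with the empty vector, and its paired edgeR adjusted p was 0.281. KLF16, another SIN3A-binding relative of KLF9 and KLF14, had 30.4 to 38.1 CPM with TIM-1 and 29.5 to 44.7 CPM with the empty vector, with a paired edgeR adjusted p of 0.571. Its pairs did not share a direction, and without the replicate 1 pair KLF16 was lower with TIM-1 (edgeR adjusted p = 0.0118). KLF17, a germ-cell and early-embryo factor, had counts of 16, 27 and 34 in TIM-1 replicates 1, 2 and 3, against 23, 15 and 11 in empty-vector replicates 1, 2 and 3. SP4 had 8.07 to 10.1 CPM with TIM-1 and 11.5 to 13.0 CPM with the empty vector, with a log2 fold change of -0.39 (SE 0.152). Its paired edgeR adjusted p was 0.0842, or 0.0226 with a GC correction added. That correction raised the lower calls over all tested genes to 1034, against 259 with pairing alone. Paired DESeq2 gave SP4 an adjusted p of 0.541. Leaving out the pair of replicate 1, 2 or 3 gave SP4 paired edgeR adjusted p of 0.305, 0.364 and 0.0702. SP1, SP2, SP3 and SP6 had log2 fold changes between -0.18 and 0.02. KLF8, SP5, SP7, SP8 and SP9 had 0 counts in every library, KLF1 and KLF18 at most 2, and KLF15 at most 8.

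**Figure D3:**
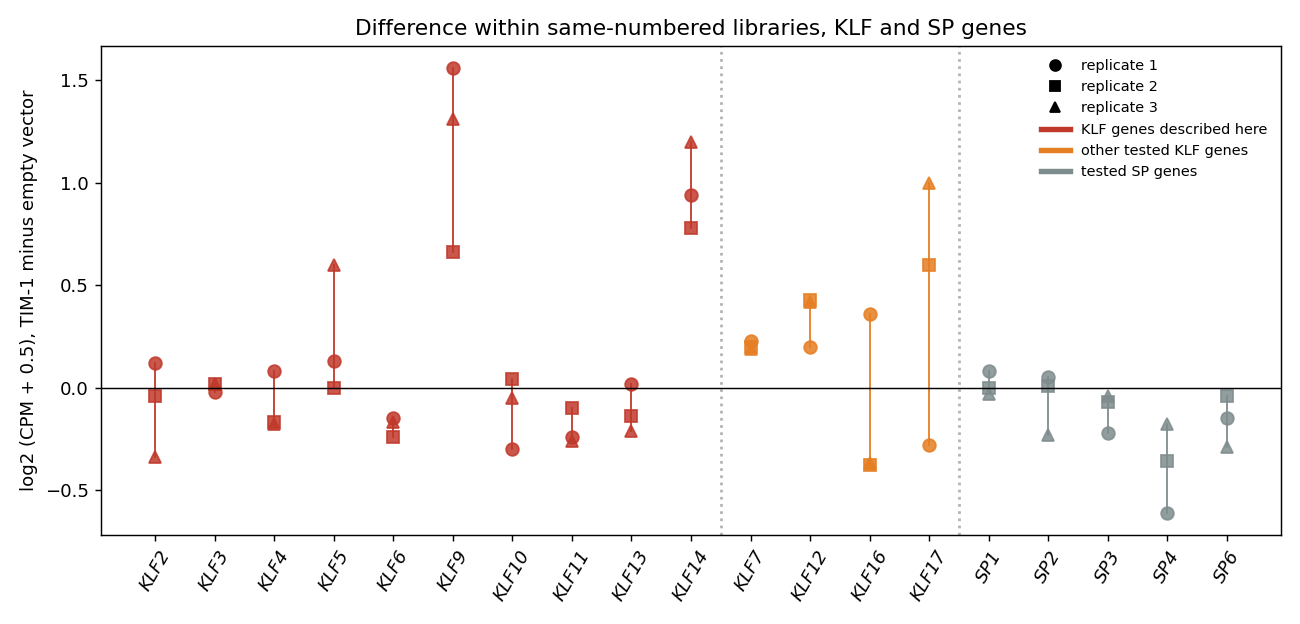
Difference of log2 (CPM + 0.5), TIM-1 minus empty vector, within same-numbered libraries for the 10 KLF genes, the 4 other tested KLF genes and the 5 tested SP genes. Markers are the 3 pairs, joined by a line, and KLF9 and KLF14 lie at 0.66 or above in every pair.

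Between replicate numbers, a contrast on which the genes were not picked, 4 of the 10 KLF genes differed, namely KLF2, KLF4, KLF6 and KLF11, against 22% of all tested genes. Of all tested genes 10.9% were called as lower in replicate 1, the direction of all 4. These 4 were lower in both libraries of replicate 1 than in the other 4 libraries, as were 20.4% of all tested genes. KLF4 had means of 6.02 CPM in replicate 1, 14.6 CPM in replicate 2 and 17.1 CPM in replicate 3. Relative to replicate 1, its fitted log2 differences were 1.28 for replicate 2 and 1.51 for replicate 3 (edgeR adjusted p = 1.01e-09). KLF6 stood at 433 CPM in replicate 1, 802 CPM in replicate 2 and 781 CPM in replicate 3 (edgeR adjusted p = 4.26e-15). KLF2 had 42.9, 63.7 and 69.8 CPM in replicates 1, 2 and 3 (edgeR adjusted p = 8.80e-07), and KLF11 had 29.7, 43.9 and 46.7 CPM (edgeR adjusted p = 5.22e-06). These same 4 genes were called under every one of the 11 alternatives to this test.

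KLF3 was also lower in both libraries of replicate 1, but did not pass (edgeR adjusted p = 0.177). For KLF9 the log2 differences from replicate 1 were -0.49 for replicate 2 and -0.49 for replicate 3 (edgeR adjusted p = 0.334). For KLF14 they were 0.53 and 0.39 (edgeR adjusted p = 0.682). KLF5, KLF10 and KLF13 had adjusted p of 0.925, 0.516 and 0.966 by edgeR.

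Immediate-early genes, which are switched on within minutes of stimulation without new protein synthesis, moved with the replicate number beside these KLF genes. Of 15 tested immediate-early genes 11 differed by replicate number, and all 11 were lower in replicate 1. Of all tested genes 22% were called, and 10.9% were called as lower in replicate 1. Other lists described below also moved with the replicate number. Called were 9 of 13 early TGF-beta target genes (4 lower and 5 higher in replicate 1). Of 11 reported KLF targets 7 were called (2 lower, 5 higher), and of 14 glucocorticoid receptor and target genes 6 (5 lower, 1 higher). For KLF cofactors it was 1 of 15, and for SP genes 0 of 5. The AP-1 gene FOSB had 12.6, 94.4 and 96.8 CPM in TIM-1 replicates 1, 2 and 3, against 18.0, 139 and 159 CPM in empty-vector replicates 1, 2 and 3. It was lowest in both libraries of replicate 1, as KLF4 was. With TIM-1, 2 of the 15 rose and 3 fell in the paired test, against 3.22% of all tested genes higher and 1.79% lower, and 0 were called without pairing, where 1 had an unadjusted p under 0.05 and DESeq2 called 0. With pairing, FOSB fell by 0.62 (log2, edgeR adjusted p = 4.66e-08) and MYC fell by 0.35 (edgeR adjusted p = 0.000105). IER3 rose by 0.33 (paired edgeR adjusted p = 0.00496), a call lost without the replicate 3 pair (0.0726) and with DESeq2 (adjusted p = 0.103). The part of these genes in the differences of the KLF genes was not tested.

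**Figure D4:**
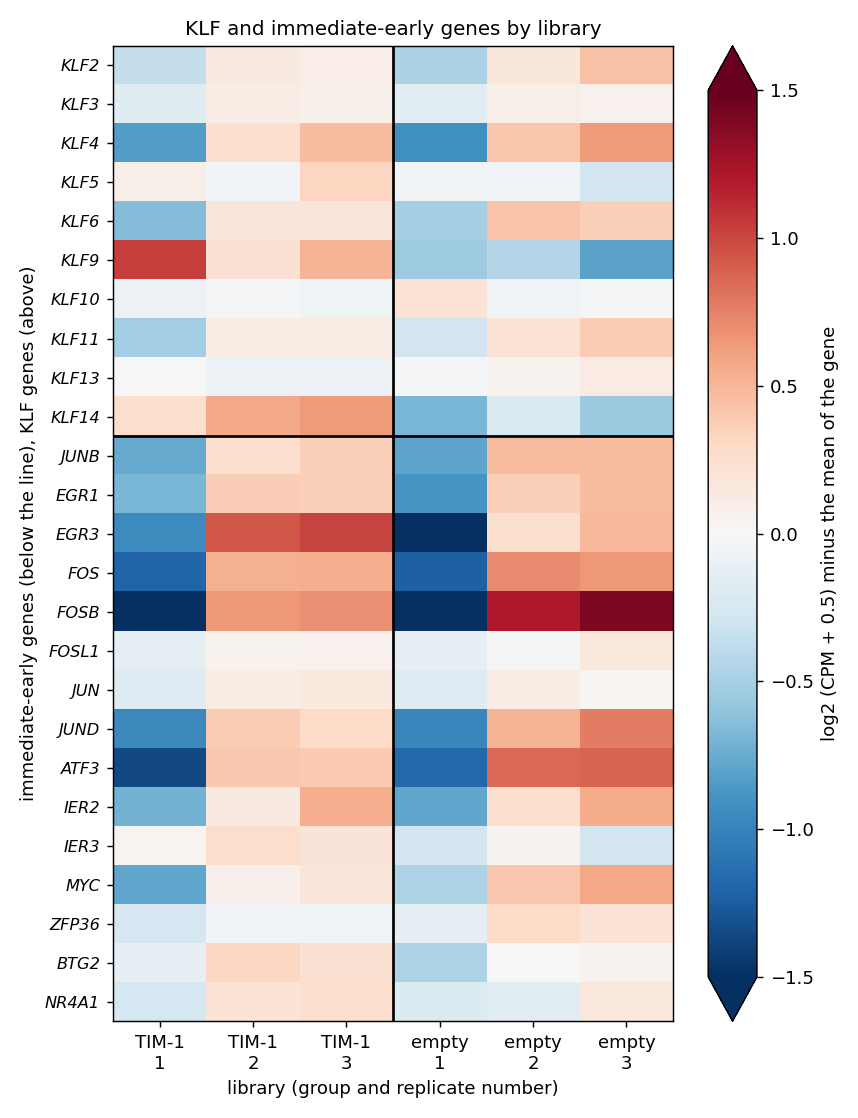
Level of the 10 KLF genes and 15 immediate-early genes in each library, as log2 (CPM + 0.5) minus the mean of the gene over the 6 libraries, with TIM-1 libraries on the left. KLF2, KLF4, KLF6 and KLF11 share the low replicate 1 columns with FOS, FOSB and JUNB, and KLF9 and KLF14 change between the left and right columns.

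Genes upstream of the KLF genes were followed in lists. The glucocorticoid receptor and its target genes, among which KLF9 is commonly counted, had 14 tested members, of which 0 rose and 1 fell in the paired test, against 3.22% of all tested genes higher and 1.79% lower, and 0 were called without pairing, 0 with an unadjusted p under 0.05 and 0 by DESeq2. With pairing 4 of the 14 had an unadjusted p under 0.05 in edgeR, against 2656 of the 14479 tested genes, and DESeq2 called 0. The receptor gene NR3C1 had 109 to 142 CPM with TIM-1 and 93.7 to 130 CPM with the empty vector, and was higher in replicate 1 of both groups. NR3C1 was higher with TIM-1 in each pair (paired log2 fold change 0.20, SE 0.0662, edgeR adjusted p = 0.0711). Its targets FKBP5, TSC22D3 and PER1, named outside the rule after their values were seen, had log2 fold changes of -0.09, 0.25 and -0.16. BIRC3, an inhibitor of apoptosis that is also a target of NF-kB, was the member that fell, by 0.48 (edgeR adjusted p = 0.000275 with pairing). It had 98.0, 428 and 393 CPM in the TIM-1 replicates, against 173, 553 and 476 CPM in the empty-vector replicates, and DESeq2 with pairing gave an adjusted p of 0.119. The median log2 fold change of the list was 0.05, against 0.00 for all tested genes.

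The thyroid hormone receptor gene THRA had 22.2 to 31.6 CPM with TIM-1 and 17.1 to 31.2 CPM with the empty vector, with a log2 fold change of 0.12 (SE 0.227, edgeR adjusted p = 0.960 without and 0.514 with pairing). In the MEK5, ERK5 and MEF2 pathway, which acts on KLF2 and KLF4, 0 of 6 tested genes were called with or without pairing, 0 had an unadjusted p under 0.05 in either, and DESeq2 called 0 in either. MAP3K2, the kinase at its head, had a log2 fold change of 0.02 and the transcription factor gene MEF2D one of 0.16.

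Of 13 early TGF-beta target genes 2 rose and 1 fell in the paired test, against 3.22% of all tested genes higher and 1.79% lower, and 0 were called without pairing, where 1 had an unadjusted p under 0.05 and DESeq2 called 0. TGFBI, which encodes a matrix protein, had 464 to 513 CPM with TIM-1 and 355 to 456 CPM with the empty vector (paired log2 fold change 0.33, edgeR adjusted p = 0.000268, and 0.0582 without the replicate 2 pair). LTBP2, a matrix protein that binds fibrillin, rose by 0.37 (edgeR adjusted p = 0.0375 with pairing), a call lost without the replicate 2 pair (0.411), without the replicate 3 pair (0.256) and with DESeq2 (adjusted p = 0.408). The members thus moved in both directions, and their median was 0.05.

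Of 15 genes for cofactors and ubiquitin enzymes that act on KLF proteins, 0 were called with or without pairing, 0 and 1 had an unadjusted p under 0.05 without and with it, and DESeq2 called 0 in both. The corepressor gene SIN3A, named outside the rule after its values were seen, had 79.4 to 81.1 CPM with TIM-1 and 71.6 to 88.4 CPM with the empty vector. The deacetylase genes HDAC1 and HDAC2 had log2 fold changes of -0.03 and -0.07. Of 11 tested genes that were reported as KLF targets, 0 rose and 2 fell in the paired test, against 3.22% of all tested genes higher and 1.79% lower, and 0 were called without pairing, where 1 had an unadjusted p under 0.05 and DESeq2 called 0. PLAU, the urokinase gene, fell by 0.23 (edgeR adjusted p = 0.0105 with pairing), a call lost without the replicate 2 pair (0.269) and the replicate 3 pair (0.0574). CCND1, the cyclin D1 gene, had 463 to 466 CPM with TIM-1 and 501 to 555 CPM with the empty vector, and fell by 0.19 (edgeR adjusted p = 0.0442 with pairing). Its call was lost without the replicate 2 pair (0.411) and the replicate 3 pair (0.171), and with DESeq2 (adjusted p = 0.0893). CDKN1A, the p21 gene, named outside the rule, had a log2 fold change of 0.08.

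KLF14 lies beside the imprinted MEST region of chromosome 7, and 1 of 3 tested genes of that region, CPA4, rose with TIM-1 in the paired test, against 3.22% of all tested genes. Without pairing 0 were called, 1 had an unadjusted p under 0.05 in edgeR, and DESeq2 called 0. CPA4 encodes a secreted carboxypeptidase and its span ends 407 kb from that of KLF14. For CPA4, TIM-1 replicates 1, 2 and 3 gave 64, 97 and 134 counts, and empty-vector replicates 1, 2 and 3 gave 47, 55 and 54 counts, with no overlap in CPM, as for 11.7% of all tested genes. The levels were 5.88 ± 1.41 CPM in TIM-1 libraries and 3.20 ± 0.234 CPM in empty-vector libraries (SD, n = 3 each). The paired log2 fold change of CPA4 was 0.87 (SE 0.205, edgeR adjusted p = 0.00541), against an adjusted p of 0.593 without pairing. The call of CPA4 was lost without the replicate 2 pair (0.0742), without the replicate 3 pair (0.127) and with DESeq2 and pairing (adjusted p = 0.230). COPG2 and CEP41, which lie between CPA4 and KLF14, had log2 fold changes of 0.05 each, and MEST had at most 4 counts in a library.

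The genes whose levels followed KLF9 most closely over the 6 libraries were TRPT1, PDIA5, CECR2, S100A16 and SNX10, with Pearson r of log2 (CPM + 0.5) between 0.976 and 0.996. For KLF14 they were SYCE1L, RAB9A, RABL2A, BTN3A3 and FAM227B, with r between 0.992 and 0.995. Of 11479 protein-coding genes with a mean of at least 1 CPM, 139 reached r above 0.9 with KLF9 and 112 with KLF14. The 6 libraries share the group and replicate structure described above, so these correlations are a description. Annotated transcripts that overlap the 10 genes had few counts. KLF3-AS1, which overlaps the start of KLF3, had at most 4 counts, and KLF2-DT, which starts beside KLF2, at most 2. A lincRNA that starts 2186 bases from the KLF11 start without overlapping it had 105 to 182 counts per library, and of 10 KLF pseudogenes KLF2P1 alone had counts, at most 15 in a library.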

How the data were processed

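The deposited table holds raw counts of reads per Ensembl gene, with 1 column per library and no normalization by the authors, per the file headers. HISAT2 2.0.5, featureCounts 1.5.0-p3, DESeq2 1.16.1 and hg38 are named in the submitters' processing notes. Neither the annotation release nor the strand setting nor the handling of multi-mapped reads is given in the sources used here, so antisense and overlapping genes may share reads. Positions and exon lengths came from GENCODE 29 (GRCh38, the assembly of hg38), which held 58337 of the 60605 genes. The windows around start sites came from RefSeq (GRCh38.p14).

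Groups followed the treatment label and replicate numbers the sample titles. All genes were fitted with edgeR 4.0.16 (quasi-likelihood F test, robust, TMM factors, filterByExpr with a minimum count of 10) in R 4.3.3, two-sided, and p was adjusted by the Benjamini-Hochberg method over the 14479 tested genes with a threshold of 0.05. A positive log2 fold change means higher in TIM-1. The replicate number was tested as a factor with the group in the model. DESeq2 1.42.0, other normalization, no filter, GC correction and leaving out libraries were alternatives. The tests were also run on simulated counts. Replicate shifts there were typically set smaller than those of KLF2, KLF4, KLF6, KLF11 or FOSB, so that run does not cover such genes.

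A replicate block was an alternative. Deviations from the group means correlated between libraries of the same number at 0.595, 0.288 and 0.321, above the limit of 0.1, and paired values are given where they change a call. The pairing comes from these data, not from the labels, and other pairs of replicates 2 and 3 correlated at 0.310 and 0.222. Chi-square per degree of freedom within groups was at least 4.16, so no library repeats another. The genes and lists were chosen with earlier results of these data known. Named genes were the 10 KLF genes, tested KLF and SP relatives, up to 3 called members per list by smallest p or else up to 2 of the highest CPM, and the closest patterns. Some list members that the rule selects are not reported here.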

Additional observations from a re-analysis of the deposited data

How the results depend on the processing

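The counts of called genes depended most on the pairing. Of the 8 KLF genes not picked for their rise, 0 were called without pairing, 1 (KLF6) with the replicate block, also with relative log expression normalization or no low-count filter added, and 2 (KLF6 and KLF11) with a GC correction added. Over all genes, 2 were called without pairing, 25 with DESeq2, 72 with no low-count filter and 1 to 9 with a library left out. With the replicate block 725 were called, 748 with relative log expression normalization and 1582 with GC correction. With the block DESeq2 called 201 and no filter 726, again from 28529 genes. The GC correction called 548 higher and 1034 lower, against 466 higher and 259 lower with the block alone. Leaving out a pair gave 870 (replicate 1), 210 (replicate 2) and 467 (replicate 3). In the other lists 0 of 86 genes were called without pairing (6 with unadjusted p under 0.05 in edgeR, 0 by DESeq2), and 13 with the replicate block. That number was 13 with relative log expression normalization and 19 with GC correction, and 15, 4 and 6 without the pair of replicate 1, 2 and 3. It was 5 with DESeq2 and 14 with no filter, both from 102 genes. The cause of these shifts was not tested.

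The alternatives were run for the 10 KLF genes and for genes of the other lists taken by the rule for named genes, not for genes named outside it. Among those run, 10 had a log2 fold change that changed sign, none of them called without pairing. With a library left out, KLF2 lay between -0.341 and 0.0983, KLF3 between -0.0693 and 0.0950, KLF4 between -0.484 and 0.178, KLF6 between -0.437 and 0.0365, SP1 between -0.0231 and 0.0463, SP2 between -0.166 and 0.0100, HDAC1 between -0.110 and 0.0097, MAP3K2 between -0.0550 and 0.102, BIRC3 between -0.750 and 0.0353 and THRA between -0.0641 and 0.381. The higher ends for KLF6 and BIRC3 came without TIM-1 replicate 1. With the block and a pair left out, KLF2 reached 0.0392, SP1 -0.0166, SP2 0.0319, HDAC1 0.0131 and MAP3K2 -0.0418. With the block, KLF3 was -0.00024 with no filter and -0.0349 with GC correction, which also gave SP1 -0.0308 and MAP3K2 -0.00088. The GC correction moved the median of all tested genes to -0.04 and the block with no filter moved it to -0.009, so these signs do not stand apart from that shift. KLF14 moved to 1.59 without empty-vector replicate 2. KLF14 had the lowest counts of the 10 genes, at 10 to 43 per library. With pairing its SE was the largest of the 10 (0.373), while without pairing that of KLF4 was larger (0.485, against 0.341 for KLF14).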
